A study of Saccharomyces cerevisiae with 6 samples.

Results

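The genes described here are the 10 that make, break down and move glycerol in budding yeast, together with its water channels: GPD1, GPD2, GPP1, GPP2, GUT1, GUT2, STL1, FPS1, AQY1 and AQY2. They were taken by gene symbol from 1-colour Agilent arrays, and all 10 were found among 6226 features tested, 1 probe each (GPP1 and GPP2 under their older names RHR2 and HOR2). The arrays compared 3 cultures of a flor yeast with 3 cultures of a wine yeast. The flor strain was P3_Kan (P3-D5), a haploid of mating type alpha that carries a KanMx drug-resistance cassette, and the wine strain was K1_Kan (K1-280-2B), a haploid of mating type a whose Kan suffix the labels do not explain. Both grew with shaking at 28 °C in synthetic medium made to resemble wine, and cells were harvested once the culture reached an optical density of 1 (600 nm). The labels state that under shaking the flor strain forms no velum, the floating film in which flor yeasts age fortified wines, and that the wine strain is unable to form one. Each strain is represented by 1 haploid line, so mating type and every other difference between the 2 lines go together with the name flor or wine. Values are the authors' deposited log2 intensities, already normalized between arrays, so each change is relative to the other genes.

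In Saccharomyces cerevisiae glycerol is both the main compatible solute, which keeps water in the cell when the medium is concentrated, and an outlet for surplus NADH during fermentation. It is made from the glycolytic intermediate dihydroxyacetone phosphate by a NAD-dependent glycerol 3-phosphate dehydrogenase (Gpd1 or Gpd2) and a phosphatase (Gpp1 or Gpp2). It is burned as a carbon source through glycerol kinase (Gut1) and the FAD-dependent glycerol 3-phosphate dehydrogenase of the mitochondrial inner membrane (Gut2). Stl1 pumps it in with protons, the aquaglyceroporin Fps1 lets it out, and the aquaporins Aqy1 and Aqy2 conduct water.

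In the flor strain the glycerol symporter gene STL1 was 10.3-fold lower than in the wine strain, the aquaporin gene AQY2 was 3.51-fold higher, and both phosphatase genes were higher while GPD2 and the kinase gene GUT1 were lower. Of the 10 genes, 4 were higher in the flor strain (GPP1, GPP2, GUT2 and AQY2), 3 were lower (GPD2, GUT1 and STL1), and 3 did not pass (GPD1, FPS1 and AQY1) by limma's moderated test at an adjusted p under 0.05 over all features. Over all features 20.5% passed upwards and 23.6% downwards, 44.1% in all. The number of calls among the 10 is thus to be read against a high background. The median absolute log2 change was 0.71 over the 10 genes and 0.23 over all features. A called log2 change of at least 1 in either direction was found for 2 of the 10, STL1 and AQY2, and for 6.41% of all features. The signed median of the 10 was −0.01 (0.16 without flor replicate 1), against −0.02 over all features. RNA came from whole cultures, so fewer cells with a transcript and less transcript per cell cannot be told apart.

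The mating-type markers went with the labels. All 5 a-specific genes measured (STE2, STE6, MFA1, MFA2 and BAR1) were lower in the flor strain, by log2 changes of −4.79 to −3.07, and all 4 alpha-specific genes (STE3, MF(ALPHA)1, MF(ALPHA)2 and SAG1) were higher, by 3.44 to 7.17. The flor arrays correlated with each other at 0.9877 to 0.9971 across features and the wine arrays at 0.9971 to 0.9975, and the lowest flor values belonged to pairs with replicate 1. That array was the lowest of the 3 flor arrays for 7 of the 10 genes here and the highest for 0 of them, while over all features it was lowest for 42.1% and highest for 43.1%. Among the wine arrays replicate 1 was likewise lowest for 7 of the 10 genes (32.6% of all features), and replicate 3 was lowest for 0 and highest for 6 (31.3% of all features). Without flor replicate 1 the 10 genes again gave 4 higher and 3 lower. The labels place flor replicate 3 with wine replicate 2 on slide 1, and 2 cultures of each strain on slide 2.

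**Figure D1:**
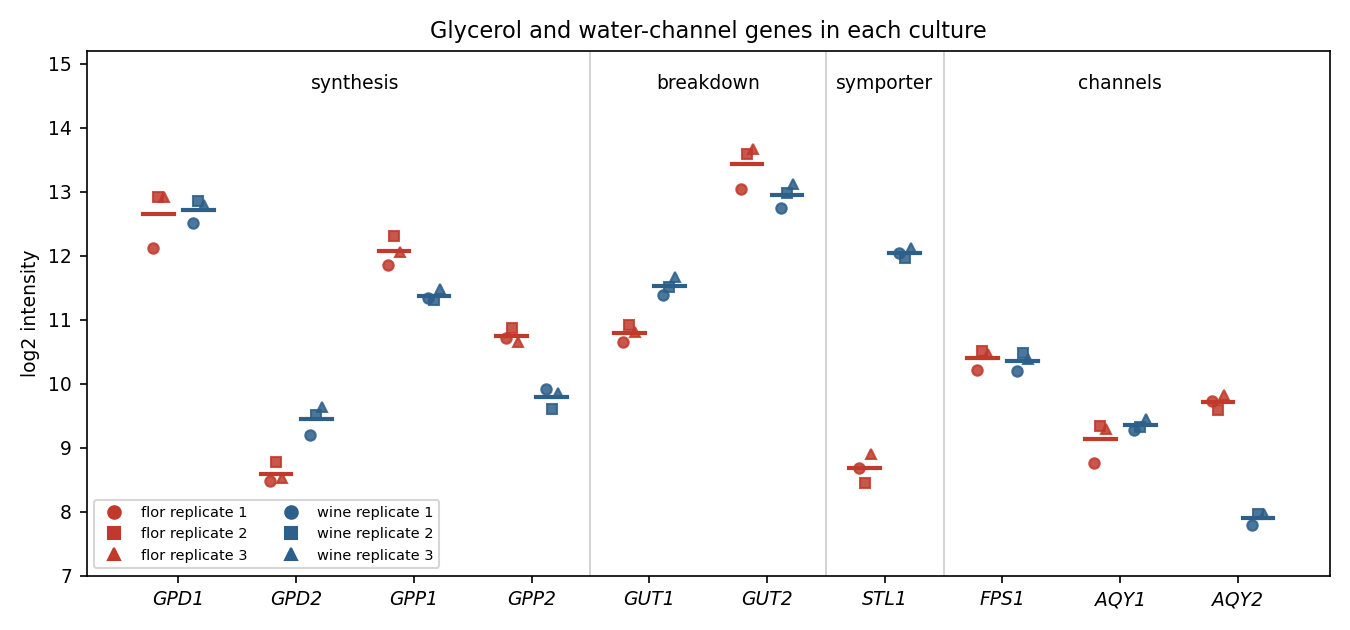
Log2 intensity (vertical axis) of each of the 10 genes in each culture, flor in red left of wine in blue. Symbols mark the replicates and bars the strain means. STL1 and AQY2 show the widest gaps between strains, and flor replicate 1 (red circle) lies below the other flor cultures for GPD1, GUT2 and AQY1.

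Among the 4 genes of glycerol synthesis, 2 were higher, 1 was lower and 1 did not pass. GPD1 encodes the dehydrogenase isoform known for its induction by high osmolarity. Its log2 intensities were 12.11, 12.91 and 12.91 in flor cultures and 12.51, 12.85 and 12.79 in wine cultures. The strains overlapped, with the lowest of the 6 values in flor replicate 1 and flor replicates 2 and 3 above every wine culture. The log2 change was −0.07 (SE 0.20, 95% interval −0.54 to 0.39, limma adjusted p = 0.81), and without flor replicate 1 it was 0.19 (adjusted p = 0.12). The interval leaves room for a fold of 0.689 to 1.31, and the flor SD of 0.46 goes with replicate 1, which lay below the other flor cultures (−0.80 from their mean).

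GPD2 encodes the second dehydrogenase isoform, known for its role in NADH balance when oxygen is short. It had 8.49, 8.77 and 8.53 in flor cultures and 9.19, 9.52 and 9.63 in wine cultures. All flor values lay below all wine values, with a gap of 0.42 between the ranges. GPD2 was 1.80-fold lower in the flor strain (95% interval 1.48 to 2.20, limma adjusted p = 7.9e-04), at 8.60 ± 0.15 against 9.45 ± 0.23 (mean ± SD of 3 cultures per strain).

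Both glycerol 3-phosphate phosphatase genes were higher in the flor strain. GPP1, the isoform usually linked to growth without oxygen, had 11.86, 12.30 and 12.06 in flor cultures and 11.33, 11.31 and 11.48 in wine cultures. Every flor value was above every wine value, and the flor cultures differed more among themselves (SD 0.22) than the wine cultures (SD 0.10). GPP1 was 1.62-fold higher (1.35 to 1.95, limma adjusted p = 0.0015), and 1.75-fold without flor replicate 1. GPP2, the isoform known for osmotic induction, had 10.72, 10.87 and 10.64 in flor cultures and 9.91, 9.61 and 9.86 in wine cultures. The ranges were 0.73 apart. GPP2 was 1.93-fold higher (1.64 to 2.27, limma adjusted p = 1.3e-04), with log2 changes of 1.03 on slide 1 and 0.91 on slide 2. GPP1 and GPP2 are close in sequence, and whether each probe binds only its own transcript was not tested.

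The pair of genes for glycerol breakdown moved in opposite directions. GUT1, the glycerol kinase of the cytosol, had 10.66, 10.92 and 10.80 in flor cultures and 11.39, 11.51 and 11.66 in wine cultures. All flor cultures were below all wine cultures by at least 0.47. GUT1 was 1.66-fold lower in the flor strain (1.41 to 1.94, limma adjusted p = 5.3e-04), with log2 changes of −0.71 on slide 1 and −0.74 on slide 2. GUT2, the mitochondrial glycerol 3-phosphate dehydrogenase, had 13.04, 13.58 and 13.66 in flor cultures and 12.75, 12.98 and 13.12 in wine cultures. Flor replicate 1 lay within the wine range and the other flor cultures above it. GUT2 was 1.39-fold higher in the flor strain (1.07 to 1.80, limma adjusted p = 0.044). This call rests on few arrays: it was lost without flor replicate 2 or 3 or without any single wine culture (adjusted p = 0.056 to 0.16) and with slide as a block (0.053), while without flor replicate 1 the fold was 1.59 (adjusted p = 1.9e-04).

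STL1 encodes the glycerol and proton symporter of the plasma membrane, a member of the sugar transporter family whose transcription is known to respond to osmotic shock and to be held down by glucose. Its log2 intensities were 8.69, 8.45 and 8.89 in flor cultures and 12.04, 11.97 and 12.13 in wine cultures. The strains stood 3.07 log2 units apart at their nearest values, many times the spread within either strain (SD 0.22 in flor and 0.08 in wine). STL1 was 10.3-fold lower in the flor strain (8.62 to 12.4, limma adjusted p = 8.2e-08), with log2 changes of −3.07 on slide 1 and −3.52 on slide 2. It ranked 14th among named genes by size of decrease, and 0.450% of all features had a larger absolute change. Even in the flor strain 57.1% of features were dimmer than STL1, so its fold was not set by the bottom of the measured range. Whether the STL1 transcripts of both strains pair equally well with the single probe was not tested.

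By distance over the 6 arrays, after subtraction of each gene's own wine mean, the 3 named genes nearest to STL1 among 4050 were STE6 (distance 0.40), MFA1 (0.51) and CIT2 (0.59). STE6 exports a-factor and MFA1 encodes it, and CIT2 is the peroxisomal citrate synthase gene. Their log2 changes were −3.36, −3.61 and −3.40, beside −3.37 for STL1. MFA1 lay near the bottom of the arrays in the flor strain (6.03, with 11.2% of features dimmer), so its change and its distance are limited by that floor. With only 2 strains such a likeness reflects mainly the size of the strain difference. In the gene order of the S288C reference (R64) STL1 lies 6 annotated genes from the right end of chromosome IV. Its direct neighbours went different ways: the siderophore-binding wall mannoprotein gene FIT1 was lower (−1.19, limma adjusted p = 2.4e-05) and the phenylacrylic acid resistance gene PAD1 higher (1.05, adjusted p = 2.4e-05) in the flor strain.

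Of the 3 channel genes, only AQY2 passed the test. FPS1, the glycerol export channel that closes under osmotic stress, had 10.21, 10.51 and 10.46 in flor cultures and 10.19, 10.48 and 10.39 in wine cultures. The strains overlapped almost completely. The log2 change of FPS1 was 0.04 (95% interval −0.21 to 0.29, limma adjusted p = 0.79), which bounds the fold between 0.867 and 1.22. It was 0.13 without flor replicate 1 (adjusted p = 0.24), and its sign turned without flor replicate 2 (−0.02) or without wine replicate 1 (−0.04).

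AQY1, an aquaporin known chiefly from sporulating and freeze-tolerant cells, had 8.75, 9.34 and 9.29 in flor cultures and 9.27, 9.32 and 9.45 in wine cultures. The ranges overlapped, with flor replicate 1 alone well below the others. The log2 change was −0.22 (95% interval −0.56 to 0.12, limma adjusted p = 0.27), and −0.03 without flor replicate 1.

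AQY2, the aquaporin expressed in growing cells, had 9.73, 9.60 and 9.83 in flor cultures and 7.79, 7.97 and 7.96 in wine cultures. The nearest values of the strains were 1.63 apart, and both strains were tight (SD 0.12 in flor and 0.10 in wine). AQY2 was 3.51-fold higher in the flor strain (3.04 to 4.06, limma adjusted p = 1.1e-06), with log2 changes of 1.86 on slide 1 and 1.79 on slide 2. It ranked 52nd among named genes by size of increase, and 1.75% of all features had a larger absolute change. In S288C the AQY2 reading frame is interrupted and is annotated as AQY2 and the adjacent YLL053C. YLL053C had no named probe, and the alleles of the 2 strains were not analysed here, so whether either transcript encodes a working channel, or pairs equally well with the probe, was not tested. The named genes nearest to AQY2 by distance were SPS19 (0.19), GCV1 (0.22) and AMD2 (0.32), with log2 changes of 1.75, 1.85 and 1.96, beside 1.81 for AQY2. SPS19 encodes a peroxisomal dienoyl-CoA reductase, GCV1 a subunit of the glycine cleavage complex and AMD2 a putative amidase. FRE6, next to AQY2 in the R64 order and coding for a vacuolar iron reductase, did not pass (−0.15, adjusted p = 0.18).

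**Figure D2:**
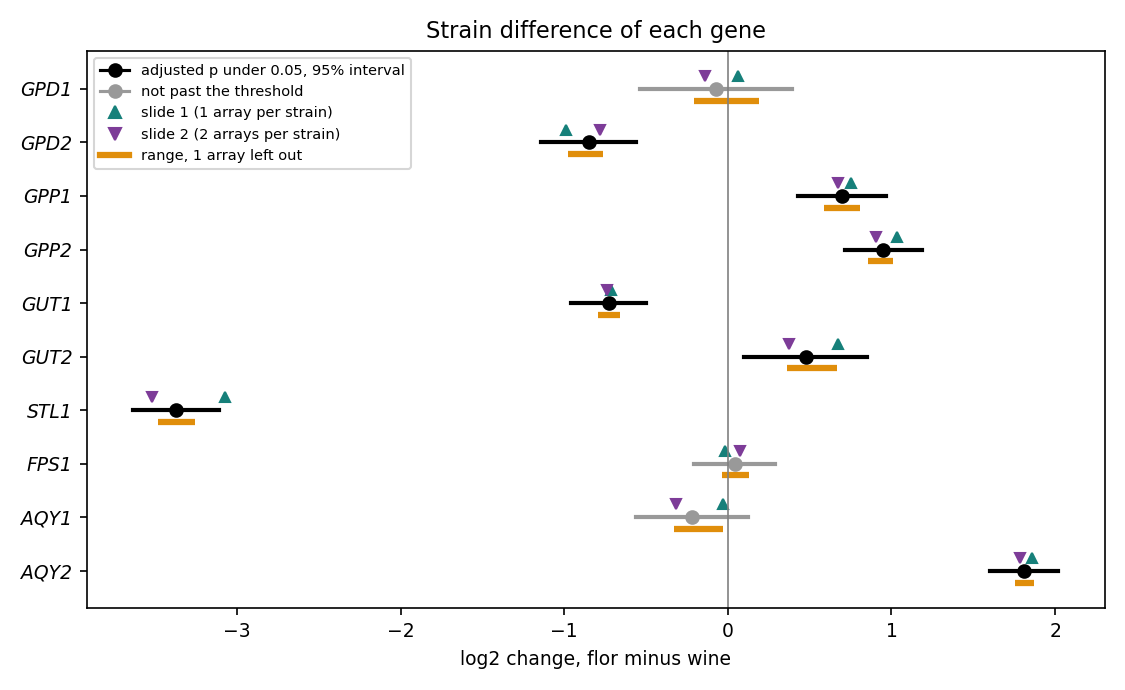
Log2 change of each gene, flor minus wine (horizontal axis), as a point with its 95% interval, black where the adjusted p was under 0.05 and grey where not. Triangles give the change on each slide and orange bars the range when 1 array was left out. The bars of the 7 called genes and of AQY1, which did not pass, stay on one side of 0, and those of GPD1 and FPS1 cross it.

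The 10 genes include 3 paralogue pairs, and the strain changes of the partners were compared within arrays. This sets a difference between strains of one gene against that of its partner and does not compare their levels. The difference GPD1 minus GPD2 was 3.63, 4.14 and 4.38 in flor cultures and 3.32, 3.33 and 3.16 in wine cultures. The flor cultures were all higher, by 0.78 log2 units in the mean, so that GPD1 gained 1.72-fold on GPD2 in the flor strain. The difference AQY1 minus AQY2 was −0.97, −0.25 and −0.53 in flor cultures and 1.48, 1.36 and 1.50 in wine cultures. Here the flor cultures were all lower, by −2.03 in the mean, a 4.09-fold shift towards AQY2. The difference GPP1 minus GPP2 was 1.14, 1.44 and 1.42 in flor cultures and 1.42, 1.70 and 1.63 in wine cultures, which overlapped (mean shift −0.25). A two-sided exact permutation test over 20 splits gave p = 0.10 for the GPD and AQY pairs, the smallest that 3 against 3 allows, and 0.30 for the GPP pair, with values of 0.15, 0.15 and 0.30 adjusted over the 3 pairs. This permutation test cannot pass a threshold of 0.05 with 3 arrays per strain, and no other test of these pairs was run.

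**Figure D3:**
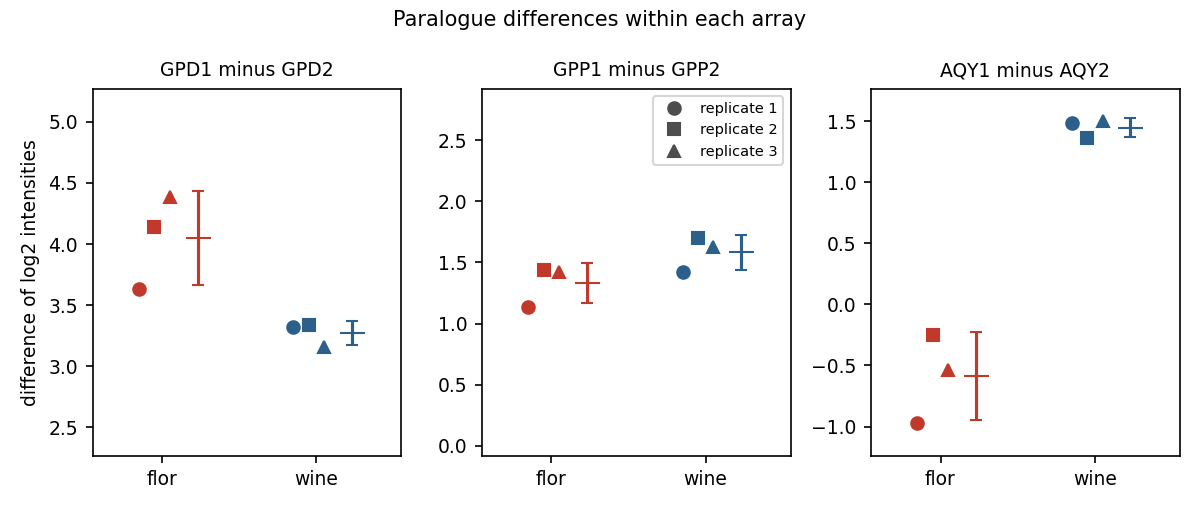
Difference of log2 intensities between paralogues within each array (vertical axis, with the same span in each panel), flor in red left of wine in blue. Symbols mark replicates, and error bars give the mean ± SD of 3 cultures. The strains separate for GPD1 minus GPD2 and AQY1 minus AQY2 and overlap for GPP1 minus GPP2.

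The median SD within strains was 0.19 in flor and 0.14 in wine cultures over the 10 genes, against 0.13 and 0.08 over all features. Values of the strains did not overlap for 6 of the 10 genes, beside 56.1% of all features. Flor lay above for 3 of them, beside 25.7% of all features, and below for 3, beside 30.4%. In the R64 gene order 6 of the 10 (STL1, AQY1, AQY2, GUT1, FPS1 and GUT2) lie within 22 annotated genes of a chromosome end, a distance chosen after their positions were seen, where 11.4% of annotated nuclear genes lie. The other 4 are 104 to 215 genes from an end. AQY2 (14 genes) and FPS1 (21 genes) share the left arm of chromosome XII. Of the 6 genes near ends, 2 were higher (AQY2 and GUT2), 2 lower (STL1 and GUT1) and 2 did not pass (AQY1 and FPS1). Over all features 20.5% passed upwards and 23.6% downwards, and the call of GUT2 was lost in 8 of 17 alternative settings.

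Genes that act around glycerol were counted in 10 lists, and each count stands beside the background of all features, 20.5% higher and 23.6% lower with a median log2 change of −0.02. In the signalling list of the HOG pathway, the MAP kinase route that senses high osmolarity and drives GPD1, GPP2 and STL1, of 18 genes measured, 4 passed upwards and 8 downwards in the flor strain, with a median of −0.18. Of all features 20.5% passed upwards, so the upward count is near the background. The higher ones were the sensor histidine kinase gene SLN1 (0.78, limma adjusted p = 8.3e-05), the phosphatase gene PTC1 (0.63), the phosphorelay gene YPD1 (0.44) and the adaptor gene STE50 (0.34). STE50 lost its call when wine replicate 2 was left out (adjusted p = 0.054). The lower ones were led by the mucin sensor genes MSB2 (−0.91, adjusted p = 4.2e-05) and HKR1 (−0.57), the kinase gene STE20 (−0.42) and the response regulator gene SSK1 (−0.42). With single arrays left out, 3 to 5 of the 18 were higher and 6 to 9 lower. The lower calls of PTP3 and NBP2 were each lost in 3 of these 6 fits. On slide 2 alone, with 2 cultures per strain, 3 of the 18 were higher and 1, MSB2, was lower. Calls over all features also fell there, from 1276 to 701 higher and from 1470 to 723 lower. Without flor replicate 1 the adaptor gene OPY2 also passed (0.48, adjusted p = 4.4e-04), so that 5 were higher.

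Of 6 transcription factor genes that act with HOG, SKO1 (−0.58) and MSN2 (−0.51) were lower and HOT1 (0.22) was higher. HOT1, the factor through which the pathway activates STL1 and GPD1, had 7.38, 7.28 and 7.30 in flor cultures and 7.06, 7.11 and 7.11 in wine cultures. Its call was lost without flor replicate 3 or without any single wine culture (adjusted p = 0.074 to 0.12) and with slide as a block, which left 0 higher. Without flor replicate 1, 2 were higher, HOT1 and SMP1.

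Among 7 other genes induced by osmotic stress, 3 were higher and 3 lower, where 44.1% of all features passed in either direction. The hydrophilin genes SIP18 (1.64) and GRE1 (1.14) and the sodium pump gene ENA1 (0.66) were higher, and the aldehyde dehydrogenase gene ALD3 (−1.64), the cytosolic catalase gene CTT1 (−1.58) and the small heat shock protein gene HSP12 (−0.33) were lower. SIP18 had 11.88, 11.32 and 11.14 in flor cultures and 9.73, 9.88 and 9.80 in wine cultures, and CTT1 had 11.24, 11.65 and 11.57 in flor cultures and 12.97, 13.06 and 13.17 in wine cultures. Both were clear of overlap, and SIP18 changed by 1.43 without flor replicate 1. The call of HSP12 was lost when flor replicate 3, wine replicate 2 or wine replicate 3 was left out (adjusted p = 0.090 to 0.12). ASK10 (also RGC2), a positive regulator of Fps1, was 0.69 higher on the log2 scale in the flor strain (adjusted p = 8.8e-05), with RGC1 not analysed here.

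In the alternative route through dihydroxyacetone, the glycerol dehydrogenase gene GCY1 was lower (−0.77, limma adjusted p = 1.6e-04) and the kinase gene DAK2 higher (0.33), while DAK1 (−0.28, and −0.0043 without flor replicate 1) and YPR1 did not pass. GCY1 had 12.44, 12.22 and 12.22 in flor cultures and 13.01, 13.13 and 13.06 in wine cultures. DAK2 lay near the bottom of the arrays in both strains (5.97 in flor and 5.64 in wine), where folds are compressed.

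Of 5 genes that lead glycerol 3-phosphate into lipids, SLC1 (−1.10), SCT1 (−0.58) and PGS1 (−0.37) were lower, with a median of −0.37. That none of the 5 was higher is little to set against the 20.5% of all features that were. SCT1 and SLC1 encode the acyltransferases that add fatty acids to glycerol 3-phosphate and to its product, and PGS1 the phosphatidylglycerophosphate synthase of mitochondria. SLC1 had 8.66, 9.01 and 9.03 in flor cultures and 9.98, 10.14 and 9.87 in wine cultures. Without flor replicate 1 AYR1, for a reductase of the same route, also passed (−0.38), so that 4 were lower. PGS1 fell short when wine replicate 2 (adjusted p = 0.063) or wine replicate 3 (0.066) was left out. Of 4 genes that reoxidise NADH at mitochondria, NDE1 (−1.19), for the external dehydrogenase that acts in parallel to the Gpd and Gut2 shuttle, and NDI1 (−0.51), for the internal one, were lower, and NDE2 and ADH3 did not pass. Without flor replicate 1, NDE2 also passed, so 1 of the 4 was higher.

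Of 11 regulators of carbon source and inositol response, the repressor gene MIG1 (1.63, 3.10-fold) and INO4 (0.35) were higher, and ADR1 (−1.42), the kinase gene SNF1 (−0.73) and SIP4 (−0.72) were lower. Adr1 is a known activator of genes for glycerol and ethanol use, GUT1 among them, and Mig1 a repressor that acts when glucose is present. MIG1 had 8.88, 9.31 and 9.13 in flor cultures and 7.37, 7.36 and 7.69 in wine cultures, and ADR1 had 7.90, 8.46 and 8.22 in flor cultures and 9.65, 9.65 and 9.53 in wine cultures. INO4 fell short when wine replicate 1 (adjusted p = 0.082) or wine replicate 2 (0.079) was left out, which left 1 higher.

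Among 5 relatives of the 10 genes and other genes tied to glycerol, DOG2 and GUP2 (0.39) were higher and GUP1 (−0.56) and PHO13 (−0.56) lower. DOG2, a sugar phosphatase of the same enzyme family as Gpp1 and Gpp2, had 8.42, 8.19 and 8.33 in flor cultures and 5.32, 5.34 and 5.34 in wine cultures. The wine values were at the bottom of the arrays, so its log2 change of 2.98 (limma adjusted p = 2.2e-08) can understate the difference. Whether the wine strain carries a DOG2 allele that pairs with the probe was not tested. DOG1, the near-identical paralogue of DOG2, did not pass (−0.05). GUP1 and GUP2 encode membrane-bound acyltransferases once taken for glycerol transporters. Of 5 genes that supply or use triose phosphates, TDH3 (−0.55) and TDH2 (−0.27) were lower and FBA1, TPI1 and TDH1 did not pass. TDH2 lost its call without flor replicate 3 or without any single wine culture (adjusted p = 0.057 to 0.10), which left 1 lower.

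**Figure D4:**
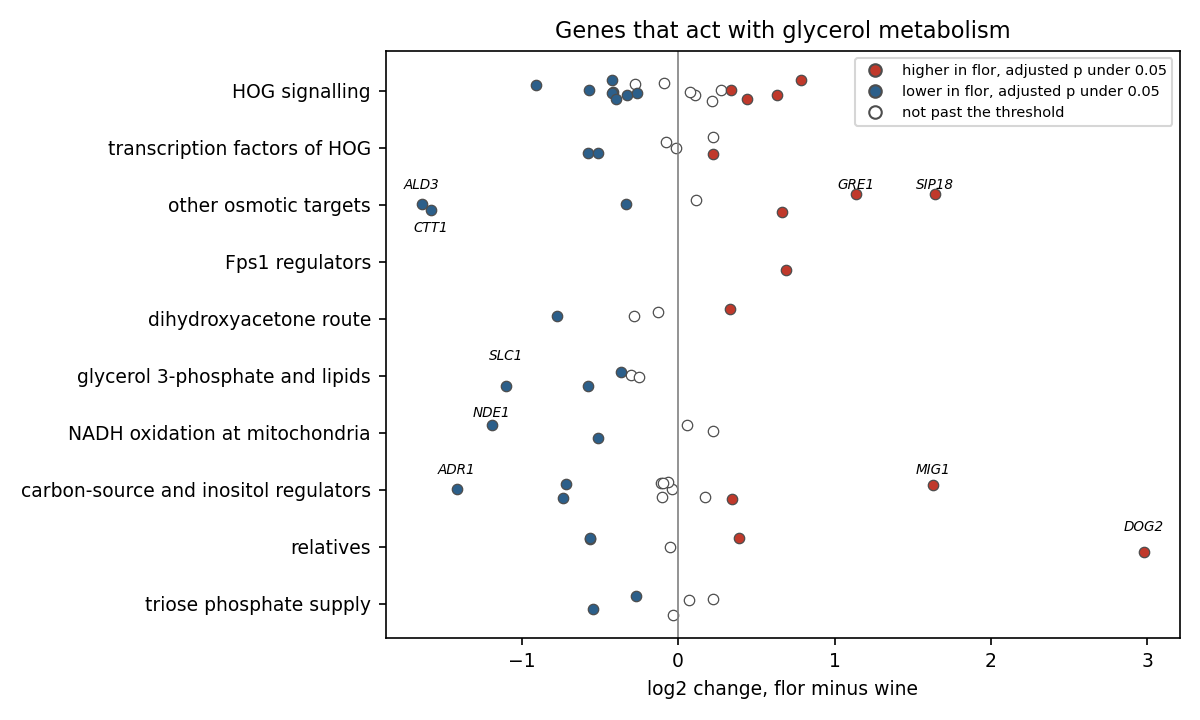
Log2 change, flor minus wine (horizontal axis), of each gene in the 10 lists around glycerol metabolism (rows, with vertical scatter only to separate points). Red and blue points passed as higher and lower in flor and open points did not pass. Names mark called genes with an absolute change over 1, from ALD3 at −1.64 to DOG2 at 2.98.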

How the data were processed

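The values used are log2 intensities that the authors deposited, 1 per probe and array, for 6227 probes. The scale was read from the values (5.29 to 15.88), and the nearly equal medians (8.33 to 8.35) show normalization between arrays. R 2.14.2 and limma are named per the submitters' processing notes. Of background correction, normalization method and filters nothing is given in the sources at hand, and detection calls were not used. Of the probes, 4061 had 1 gene symbol, 0 several and 2166 none, per the platform annotation, which can be old. The R64 gene table updated 125 symbols. Probes of 1 gene were averaged, which left 6226 features.

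Strain means were fitted to all 6 arrays with limma 3.58.1 in R 4.3.3 (lmFit, eBayes), flor minus wine, two-sided, with Benjamini-Hochberg adjustment over all features, a threshold of 0.05 and no intensity filter. Folds are powers of 2 of log2 changes. The code was tested on simulated data. Precision is limited by 3 arrays per strain. The design text calls the cultures biological replicates, and p-values measure the spread between them. Replicate 2 of each strain is labelled technical replicate 2, with no partner array used here.

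The 10 genes, the lists around them, the tests and the 17 alternatives were chosen with earlier results of these data known. The text names all 10, up to 4 genes of each list with the largest called changes, all members of counts of 5 or fewer, and the 3 named genes nearest to members with a called log2 change of at least 1. Neighbours in the gene order, and genes named as not past the threshold, were added after their values were seen.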

Additional observations from a re-analysis of the deposited data

How the results depend on the processing

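Over 17 alternative settings, AQY1 and the 7 called genes kept their direction, and the 6 calls other than GUT2 were kept in each. Some settings could not turn a direction, because they left the log2 changes of the 10 genes as they were. These were the filters on dim features, the intensity trend, the slide and replicate blocks, the unaveraged probes and the stricter threshold. GPD2 ran from −0.98 to −0.76, GPP1 from 0.58 to 0.81, GPP2 from 0.86 to 1.01, GUT1 from −0.79 to −0.66, STL1 from −3.52 to −3.23 and AQY2 from 1.76 to 1.89. GUT2 fell short with slide as a block (0.48, adjusted p = 0.053), on slide 2 alone (0.38, adjusted p = 0.27) and at an adjusted p under 0.01 (0.48), and with single arrays left out it ran from 0.36 to 0.67. The sign of GPD1, never past the threshold, turned with array weights (0.17), and with single arrays left out GPD1 ran from −0.20 to 0.19 and FPS1 from −0.038 to 0.13. Counts over all features were 1276 higher and 1470 lower, and 705 and 838 without the dimmest 50% of features (3113 tested), 701 and 723 on slide 2 alone, and 841 and 920 at an adjusted p under 0.01. The array-weight estimate stopped before full convergence. Whether replicate numbers pair the cultures was not settled. Deviations of same-numbered cultures from their strain means correlated at 0.37, 0.23 and 0.05. Flor replicates 1 and 2 correlated best with the wine culture of the same number. Flor replicate 3 correlated best with wine replicate 2 (0.19), which shares its slide. With the replicate block, 1393 features were higher and 1580 lower, and the calls of the 10 genes were the same (GUT2 adjusted p = 0.0026). Single arrays left out gave 3 to 4 of the 10 genes higher and 3 lower, and shifts of 0.61 to 0.99 for GPD1 minus GPD2, −0.33 to −0.15 for GPP1 minus GPP2 and −2.20 to −1.84 for AQY1 minus AQY2.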
